A study of Mus musculus with 1646 samples.

Results

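*Lpar3*, *Dmp1* and *Ptprr* were 3 of the 46517 genes in a table of raw counts from single cells of the mouse colon. They were chosen by their large difference between the fibroblasts at the apex of the crypts and the other fibroblasts in these same counts, so their levels in the apex cluster are given as a description and support nothing by themselves. Their levels, shares of cells and joint occurrence over clusters and reporter lines were in view when they were chosen, so the values below are a description of these cells, down to plates, wells and single cells. The data went against a strict reading of the working name for these genes, apex-restricted transcripts: *Lpar3* was at 10 or more counts in 2 cells outside the apex cluster, 1 of them a middle fibroblast above the apex median, whereas *Ptprr* was also present in interstitial smooth muscle cells and *Dmp1* in a small number of pericytes and vascular smooth muscle cells.

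*Lpar3* encodes LPAR3, a G protein-coupled receptor for lysophosphatidic acid, a signalling lipid that autotaxin (*Enpp2*) makes outside the cell and that lipid phosphate phosphatases take away. LPAR3 couples to Gi and Gq proteins and is best known from the uterus, where it is needed for the timely implantation of embryos. *Dmp1* encodes dentin matrix protein 1, an acidic secreted phosphoprotein of the SIBLING family (small integrin-binding ligand, N-linked glycoproteins), known from osteocytes and odontoblasts, where it takes part in mineralisation and phosphate balance. *Ptprr* encodes a protein tyrosine phosphatase whose kinase interaction motif binds MAP kinases, which it dephosphorylates. The fibroblasts beneath the epithelium at the crypt apex are a known source of signals to the epithelium, BMP ligands among them.

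The cells were sorted from the colon of male mice aged 10 to 20 weeks as CD31-negative events and made into libraries with SmartSeq2, a full-length method without molecular identifiers. There were 1646 cells on 9 plates of 384 wells. PdgfrbGFP mice gave 46.2% of them on 4 plates, Acta2GFP mice 34.4% on 2 plates (the tissue also treated with elastase), PdgfraGFP mice 13.8% on 2 plates and Cspg4dsRED mice 5.53% on 1 plate, with 47598 to 1494292 counts on genes per cell. In each line a fluorescent protein reports the promoter of the named gene, and the methods enriched mesenchymal cells by these reporters, by antibodies to PDGFRα or PDGFRβ, or by combined strains, without saying which gate each plate had. The clusters in a line may thus depend on an unstated gate. The labels name no mouse, line and plate cannot be told apart for Cspg4dsRED, and the spread between lines or plates may be technical. The labels put each cell in 1 of 8 clusters, which the study placed from the crypt base (cluster 7, 13.5% of cells) through base to middle (5, 25.8%), middle (1, 29.3%) and middle to apex (6, 2.73%) to the apex (2, 7.96%), beside pericytes (4, 8.63%), vascular smooth muscle cells (3, 8.57%) and interstitial smooth muscle cells (8, 3.40%). The apex cells fitted their label: tenascin C (*Tnc*) was at 1972 ± 120.8 counts per 500000 (SD, n = 3 lines) and the interleukin 33 receptor *Il1rl1* at 269.7 ± 140.4, with *Cd34* at 41.3 ± 37.4 against 1293 ± 246.7 at the crypt base, and *Ptprc* of leukocytes and *Sox10* of glia stood below 0.05. *Epcam* of epithelium was at 0.396 and *Pecam1* of endothelium at 9.02 ± 4.68, within its range over clusters (5.80 to 12.9). Of the 32 markers examined for all classes, 28 could be tested between apex and other fibroblasts with edgeR, 10 were called higher and 4 lower (of all genes 3.16% and 3.56%), and all 9 apex markers were higher, which is a description because the clusters were drawn from these genes. Those lower were *Cd34* (-4.27), the matrix proteoglycans *Lum* (-3.46) and *Dcn* (-2.87) of fibroblasts in general, and *Hhip* (-3.15). The only other marker that was higher was *Ano1*, a chloride channel of interstitial cells of Cajal and smooth muscle (log2 fold change 5.84), at 170.8 ± 64.2 in the apex and 283.6 in vascular smooth muscle cells, whereas *Kit*, the defining gene of the cells of Cajal, was at 0.503 in the apex.

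In the GENCODE vM21 annotation of GRCm38 all 3 genes are protein-coding and on the plus strand. *Lpar3* (ENSMUSG00000036832) lies on chromosome 3 at 146220963 to 146286186, *Dmp1* (ENSMUSG00000029307) on chromosome 5 at 104202613 to 104214102 and *Ptprr* (ENSMUSG00000020151) on chromosome 10 at 116018213 to 116274932. Their exons cover 2464, 2764 and 5929 bases. The RefSeq promoter table (GRCm38.p6) gave 1 start site for *Lpar3*, 2 for *Dmp1* and 4 for *Ptprr*, and 7 motifs were searched on both strands in the 250 bases before and 50 after each start: CTTTGA (TCF/LEF), TGGGTGG (GLI), TGTTTAC (FOX), GTCTAGAC (SMAD), GGCGCC (BMP-responsive), TGTGGT (RUNX) and TGANTCA (AP-1). The stretches before the annotated gene starts are shown because the 3 genes shared a cluster, so that their bases and motifs can be compared. Capitals mark the RUNX letters.
Lpar3, chr3:146220711-146220960, plus strand: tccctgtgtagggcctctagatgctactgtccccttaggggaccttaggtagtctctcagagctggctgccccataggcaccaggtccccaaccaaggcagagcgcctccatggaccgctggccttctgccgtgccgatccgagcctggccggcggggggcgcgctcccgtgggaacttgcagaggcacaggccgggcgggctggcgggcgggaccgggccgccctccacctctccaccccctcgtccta
Dmp1, chr5:104202367-104202612, plus strand: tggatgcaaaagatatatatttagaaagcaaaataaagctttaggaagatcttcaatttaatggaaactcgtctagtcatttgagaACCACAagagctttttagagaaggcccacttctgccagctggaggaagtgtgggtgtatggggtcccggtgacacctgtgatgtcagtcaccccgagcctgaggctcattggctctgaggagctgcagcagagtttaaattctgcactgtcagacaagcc
Ptprr, chr10:116018113-116018212, plus strand: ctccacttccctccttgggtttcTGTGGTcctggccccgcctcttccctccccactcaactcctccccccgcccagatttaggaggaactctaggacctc
The *Lpar3* window was rich in G and C (70.3%, with 25 CpG dinucleotides, against a median of 52.7% and 7 over all 32851 promoters), the *Ptprr* window at the annotated gene start held 61.3% and the *Dmp1* window there 47.3% with 5 CpG. None of the 7 motifs occurred in the *Lpar3* window. TGTGGT stood in this *Dmp1* window on the minus strand (104202453 to 104202458) and in this *Ptprr* window on the plus strand (116018136 to 116018141), and 16.8% of all promoters held it. TGTTTAC occurred in 2 overlapping windows of internal *Ptprr* starts as 1 and the same match (116177260 to 116177266), and was held by 3.65% of promoters. TCF/LEF letters were in none of the 7 windows and in 5257 of all promoters, and the shares for GLI, SMAD, BMP-responsive and AP-1 letters, also without a match here, were 9.30%, 0.213%, 11.9% and 7.81%. Such matches are letters in a window and say nothing of binding.

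*Lpar3*, the receptor, was at 178.8 counts per 500000 in the apex fibroblasts of PdgfrbGFP mice (30 cells), 117.5 in PdgfraGFP (55 cells) and 105.7 in Acta2GFP (44 cells), 133.998 ± 39.2 over the lines (SD, n = 3). The 2 apex cells of Cspg4dsRED mice averaged 93.7. No other group of at least 10 cells of a line exceeded 1.28 (middle fibroblasts of PdgfrbGFP), and in descending order the clusters after the apex were the middle (0.531), middle to apex (0.461), base to middle (0.271), interstitial smooth muscle (0.266), base (0.206), pericytes (0.109) and vascular smooth muscle (0.0390). Below the apex, no neighbours in this order differed beyond the spread of their lines. In all, 96.3% of the 10263 *Lpar3* counts in the table lay in apex cells.

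*Dmp1*, the matrix protein, was at 534 counts per 500000 in apex cells of PdgfraGFP mice, 496.4 in PdgfrbGFP and 434.98 in Acta2GFP (488.4 ± 49.9, n = 3). In the apex wells with no *Dmp1* count in another apex well of their row or column, a choice made after seeing the data, it was at 264.03 in 12 cells of PdgfrbGFP and 299.6 in 10 cells of Acta2GFP mice (281.8 ± 25.1, n = 2, or 101.96 per kilobase of exon), and PdgfraGFP had no such cell. Per kilobase of exon the apex level of *Dmp1* was 176.7 ± 18, that of *Lpar3* 54.4 ± 15.9 and that of *Ptprr* 37 ± 7.90. Vascular smooth muscle cells came next, at 34.4 in PdgfrbGFP, 12.5 in Acta2GFP and 10.7 in Cspg4dsRED (19.2 ± 13.2). The middle-to-apex fibroblasts followed at 16.4 in PdgfraGFP and 1.15 in Acta2GFP, then pericytes at 9.65 in PdgfrbGFP and 5.68 in Cspg4dsRED, and the range of the middle-to-apex lines overlapped both mural clusters, whereas every line of vascular smooth muscle cells lay above both of pericytes. All 28 middle-to-apex cells with *Dmp1* sat in a plate row or column of an apex well with 100 or more *Dmp1* counts, and none of the 10 cells away from such wells held a count, which allows up to 30%. Pericytes away from such wells were at 9.06 (7.33 without colon_686s), so this order holds only if all wells are counted. The fibroblasts of the base, base to middle and middle lay between 0 and 4.87 in every line. The apex held 86.8% of all 51845 *Dmp1* counts and the mural clusters 9.34%.

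*Ptprr*, the phosphatase, was at 251.4 in the apex cells of Acta2GFP mice, 241.5 in PdgfraGFP and 165.8 in PdgfrbGFP (220 ± 46.8, n = 3), and the order of the lines was the reverse of that for *Lpar3*. Interstitial smooth muscle cells stood second. Their 52 cells from Acta2GFP mice averaged 49.3, with 39.3 on colon_513s (40 cells) and 82.5 on colon_682s (12 cells), both below every plate of apex cells. Of the 4 such cells from PdgfrbGFP mice, the single cells on colon_685s and colon_686s were at 178.8 and 188.2 and the 2 cells on colon_075s at 2.17 and 0. All other clusters lay between 0.169 and 4.12 in every line and overlapped one another. The apex held 88.8% of the 22952 *Ptprr* counts.

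**Figure D1:**
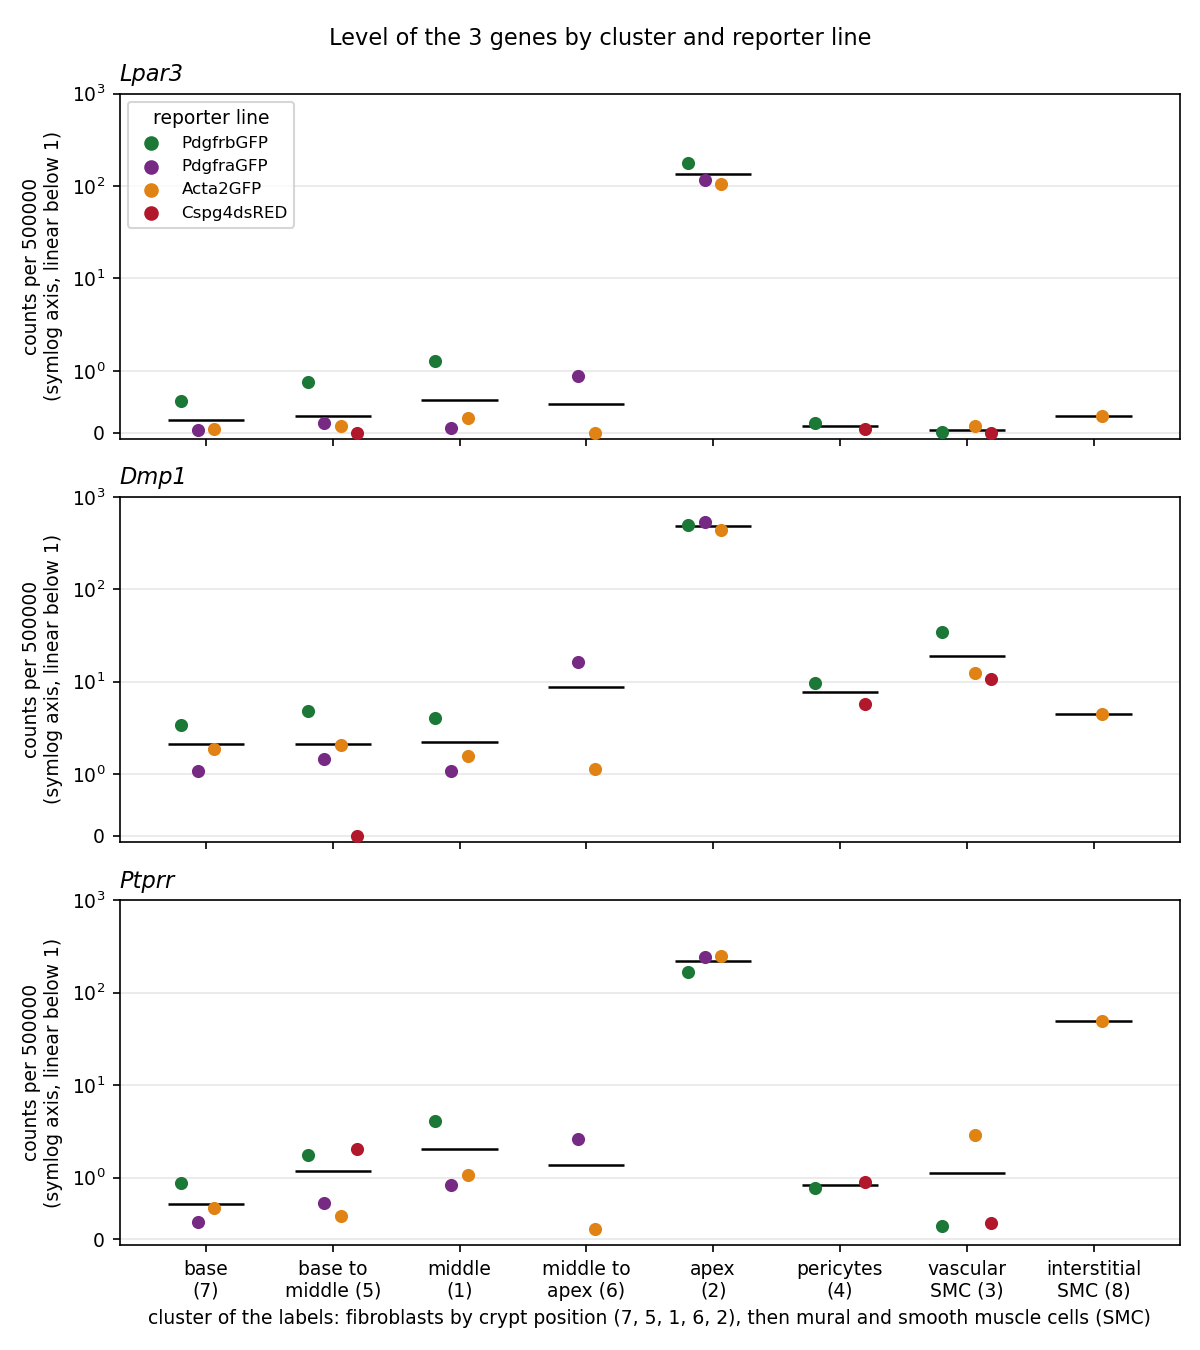
Level of each gene in counts per 500000 counts on genes (vertical axis, symmetric log scale, linear below 1) in the 8 clusters; a point is the mean over the cells of 1 reporter line with at least 10 cells of the cluster, and the bar is the mean over lines. The apex points sit between 105.7 and 534, *Lpar3* falls to 1.28 or less elsewhere, *Dmp1* keeps 10.7 to 34.4 in vascular smooth muscle cells (SMC) and *Ptprr* 49.3 in interstitial SMC.

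Over the 5 plates with at least 10 apex cells, mean *Lpar3* was 191.9 on colon_075s, 178.96 on colon_439s, 140.95 on colon_073s, 98.4 on colon_513s and 43.7 on colon_1075s. The lowest and the second highest of these plates, colon_1075s and colon_439s, carried the same line, PdgfraGFP, and *Lpar3* was found in 52% and 90% of their apex cells, although colon_1075s was the deeper (median 719766 against 273812 counts). Mean *Dmp1* varied less, from 403.6 on colon_513s to 589.5 on colon_439s, with 541 on colon_073s, 466.9 on colon_1075s and 459.5 on colon_075s. Its plate medians did not: they were 4.79 on colon_513s, 5.98 on colon_073s, 12.3 on colon_1075s, 141.5 on colon_075s and 204.8 on colon_439s. Those of *Lpar3* ran from 4.17 (colon_1075s) to 182.9 (colon_075s). *Dmp1* was found in 50% (colon_073s) to 92% (colon_1075s) of apex cells. *Ptprr* was 281.1 on colon_439s, 245.2 on colon_513s, 193.9 on colon_1075s, 172.7 on colon_075s and 123.2 on colon_073s.

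**Figure D2:**
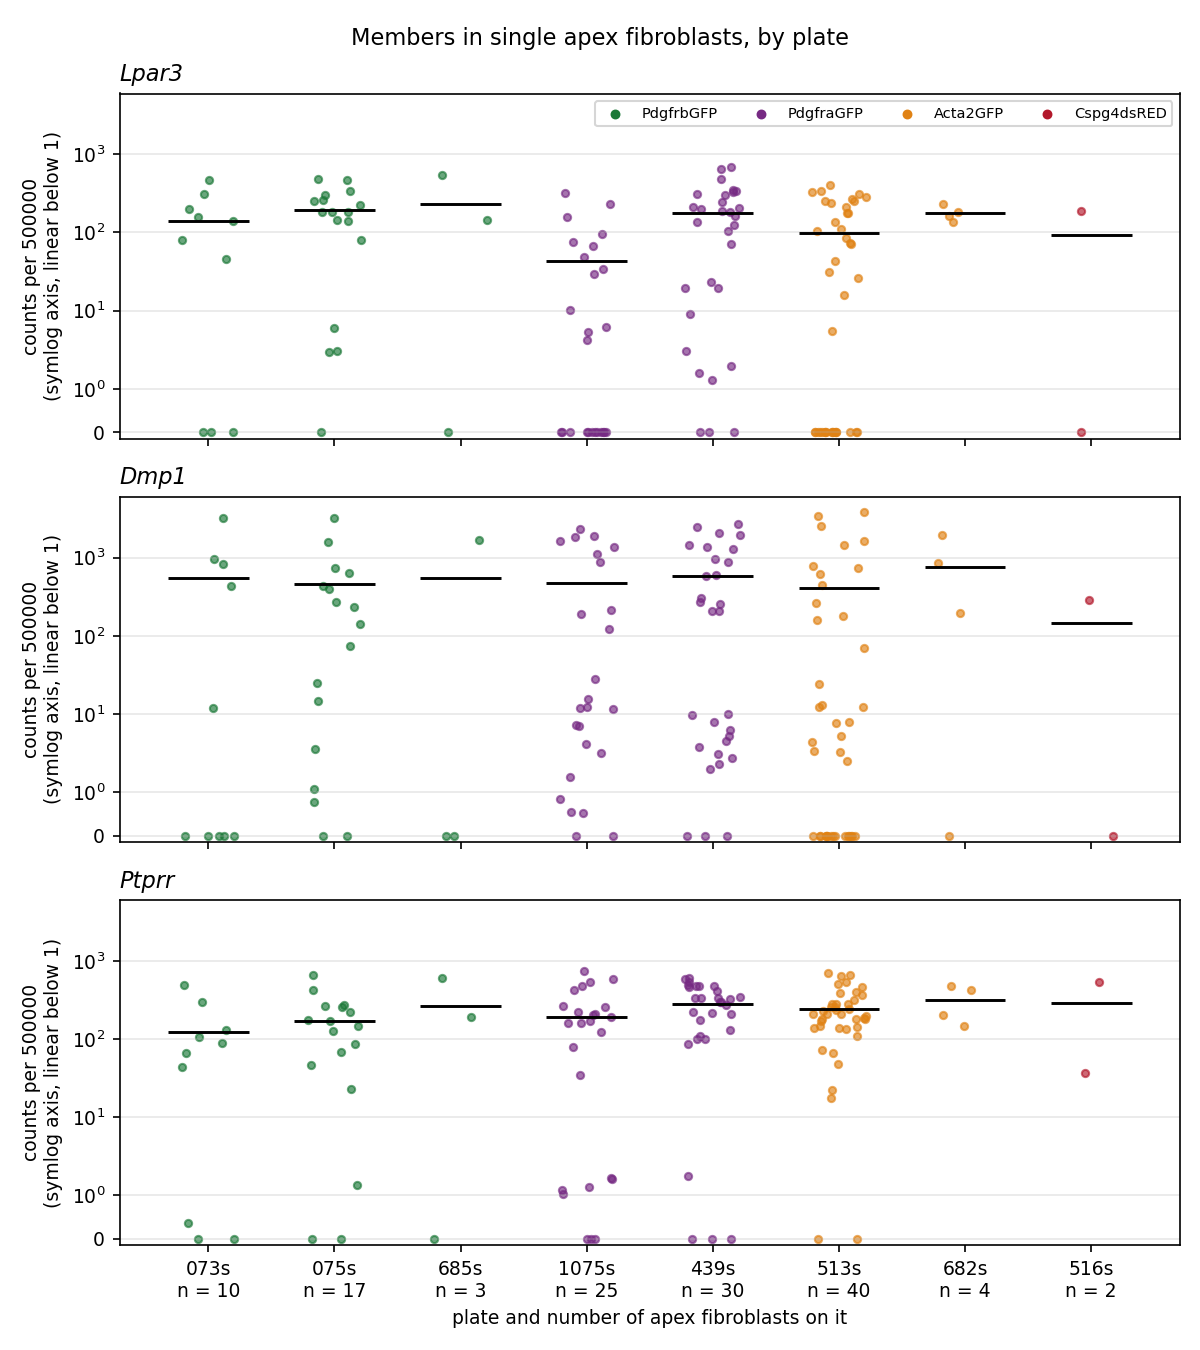
Each point is 1 apex fibroblast, in counts per 500000 on a symmetric log axis that is linear below 1, by plate and coloured by reporter line; the bar is the plate mean. *Ptprr* lies mostly in 1 band above 10 with a few cells near 0, whereas *Dmp1* runs from 0 to 3813 with a group of cells near 0 and a group above 100.

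Within the apex the genes differed in how evenly they were expressed. *Ptprr* was in 90.1% of apex cells (95% Clopper-Pearson interval 83.6 to 94.6), and in 80.9% with at least 10 counts, and its middle 50% of cells ranged from 75.8 to 334.2 counts per 500000 around a median of 194.2. *Lpar3* was in 93 cells (71%, 62.4 to 78.6), 78 with at least 10 counts, with a median of 73.1. *Dmp1* was in 99 cells (75.6%, 67.3 to 82.7), yet its median was 12.1 while the upper quartile was 622 and the highest cell stood at 3813. Of the apex cells, 32 held no *Dmp1* count, 36 held 1 to 9, 12 held 10 to 99 and 51 held 100 or more. The corresponding numbers were 38, 15, 38 and 40 for *Lpar3* and 13, 12, 50 and 56 for *Ptprr*. So *Dmp1*, with the highest mean of the 3, had few cells at middle counts.

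The low *Dmp1* counts of apex cells followed the position of the well. In the 36 apex wells that shared neither row nor column with another apex well of 100 or more *Dmp1* counts, 15 cells (41.7%) held *Dmp1*, all 15 with at least 100 counts, and none had 1 to 9 counts (which allows a share of up to 8.33%). In the 95 wells that shared a row or column with such a well, 88.4% held a count, and 37.9% of the wells had 1 to 9. Median depth was alike, 260983 and 261785 counts. Low *Lpar3* counts were in 5.00% of 60 and 16.9% of 71 wells by the same split, at median depths of 201479 and 314004. For *Ptprr* they were in 4.88% of 41 and 11.1% of 90, at 202639 and 290274. The methods separate the cells of a plate by Nextera index adapters, and the part of shared indices in these low counts was not tested.

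The fits between lines are a description for the 3 genes, since their levels by line were in view when they were chosen. With so few plates the main fits called no gene at all. The lack of a call thus sets the 3 genes apart from no other gene. Raw counts of apex cells were summed per plate and the lines compared with edgeR's quasi-likelihood test on all 14550 genes that passed filterByExpr. PdgfraGFP (2 plates) against PdgfrbGFP (2 plates) gave a log2 difference of -0.21 for *Lpar3* (SE 0.73, 95% interval -1.84 to 1.42), 0.37 for *Dmp1* (SE 0.42, -0.57 to 1.31) and 0.67 for *Ptprr* (SE 0.52, -0.49 to 1.83), with Benjamini-Hochberg adjusted p of 1, 0.987 and 0.947 in edgeR. These intervals still allow differences above 2-fold for each gene. Acta2GFP, with 1 plate that is assumed to vary like the others, gave intervals of -2.42 to 1.63, -1.21 to 1.09 and -0.73 to 2.04 against PdgfrbGFP for *Lpar3*, *Dmp1* and *Ptprr*, and intervals about as wide against PdgfraGFP. None of the 3 genes was called in any comparison, where the background was 0 called genes (0% of 14550) in each by edgeR. At an unadjusted p under 0.05 edgeR gave 4.17%, 1.15% and 2.15% of the genes for PdgfraGFP against PdgfrbGFP, Acta2GFP against PdgfrbGFP and Acta2GFP against PdgfraGFP, and DESeq2 called 2.30%, 0.103% and 0.261%, none of the 3 genes among them. With the plates of 3 or more apex cells included, which added a plate of 4 cells to Acta2GFP and a plate of 3 cells to PdgfrbGFP, Acta2GFP against PdgfrbGFP went from -0.06 to 0.98 for *Dmp1* (-0.03 to 1.985) and from -0.39 to 0.23 for *Lpar3* (-1.44 to 1.90), neither of them called by edgeR. Leaving out colon_439s moved the *Lpar3* difference between PdgfraGFP and PdgfrbGFP to -1.64, leaving out colon_1075s to 0.49 and leaving out colon_075s to 0.59.

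At 1 count or more the genes occurred together about as often as their separate frequencies give. All 3 were found in 65 apex cells (49.6%, 40.8 to 58.5), and the product of the 3 shares is 48.3%. Exactly 2 were found in 50 cells, 1 in 15 cells and none in 1 cell. *Lpar3* with *Dmp1* was in 72 cells (55%, product 53.7%), *Lpar3* with *Ptprr* in 82 (62.6%, product 63.9%) and *Dmp1* with *Ptprr* in 91 (69.5%, product 68.1%). At 10 or more counts, which leaves out the 36 apex cells with 1 to 9 *Dmp1* counts, all 3 were in 34 cells (25.95%, product 23.2%), *Dmp1* with *Ptprr* in 57 (43.5%, product 38.9%), and 6 cells had none. At 100 or more counts the pairs stood above their products: all 3 were in 16 cells (12.2%, 7.15 to 19.1, product 5.08%), *Lpar3* with *Dmp1* in 18.3% (12.1 to 26.02, product 11.9%), *Lpar3* with *Ptprr* in 17.6% (11.5 to 25.2, product 13.1%) and *Dmp1* with *Ptprr* in 22.9% (16.02 to 31.1, product 16.6%). These intervals treat cells as independent although plates and lines are shared, and each product comes from the same cells. Joint occurrence was also in view when the 3 genes were chosen. No share is thus tested against its product. A deeper cell reaches 100 raw counts of any gene more easily, and the part of depth in this was not tested. After thinning each cell to 50000 counts, which every apex cell allowed, Spearman's rho was 0.29 between *Dmp1* and *Ptprr*, 0.042 between *Lpar3* and *Dmp1* and -0.11 between *Lpar3* and *Ptprr*. The cells share 8 plates and 4 lines. On the 3 plates with the most apex cells, rho of the scaled counts for *Dmp1* and *Ptprr* was 0.29 (colon_439s, 30 cells), 0.16 (colon_1075s, 25 cells) and 0.23 (colon_513s, 40 cells), whereas for *Lpar3* and *Dmp1* it was -0.17, 0.48 and -0.13.

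**Figure D3:**
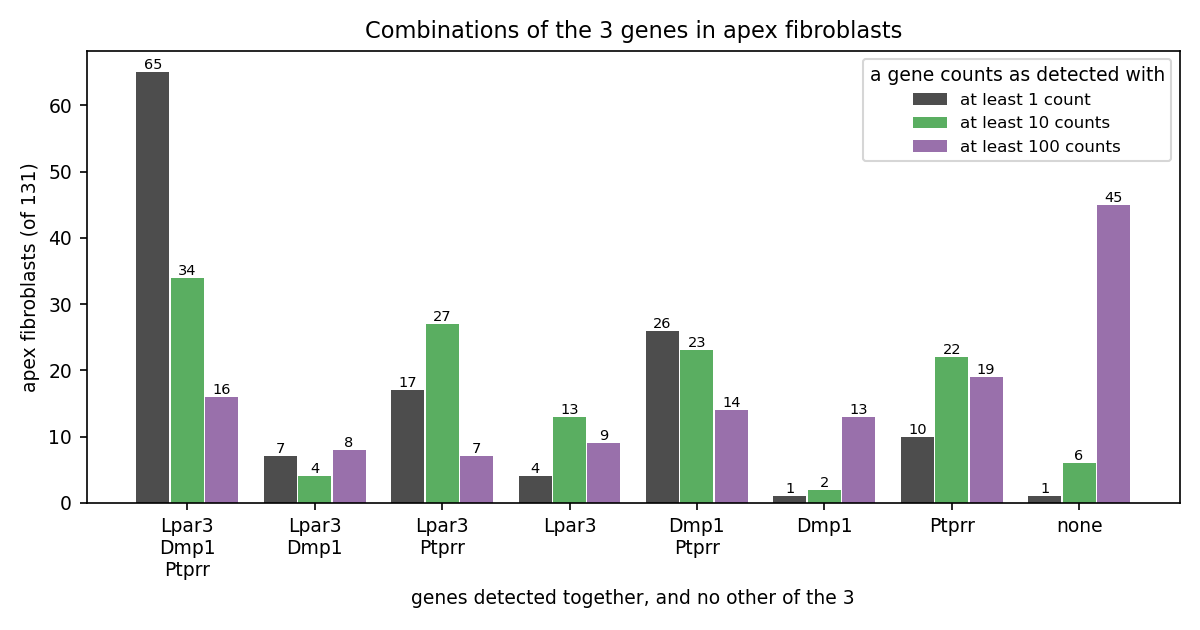
Number of apex fibroblasts (vertical axis) with each combination of the 3 genes, for detection at 1, 10 and 100 counts. All 3 genes are the most frequent combination at 1 count (65 cells) and at 10 counts (34 cells), and at 100 counts 45 cells reach the threshold with none of them.

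Outside the apex many cells held a few counts and a small number held many. *Lpar3* was found in 10.8% of 1515 other cells, *Dmp1* in 30.1% and *Ptprr* in 27.3%, but only 2, 94 and 22 of these cells held 10 or more counts. The *Lpar3* share rested on colon_075s, without which it was 4.40%. On the 8 plates with apex cells, *Dmp1* was found in 61.4% of the 612 cells whose row or column held an apex well of 100 or more *Dmp1* counts, and in 43 of 787 (5.46%) of the rest, at median depths of 232001 and 229151. For *Lpar3* the shares were 27.9% with and 3.44% without such a well, at median depths of 267708 and 214067, and leaving out colon_075s brought them to 13.9% and 1.31%. For *Ptprr* they were 43.1% of 608 and 15.7% of 791, at 261549 and 214566. Within plates the *Lpar3* shares were 57.2% against 23.6% on colon_075s and between 6.67% and 21.1% against 0 to 2.35% on the other 5 plates with such wells. The *Ptprr* shares differed by less on some plates: 16.2% against 10.8% on colon_513s and 55.6% against 50% of 2 cells on colon_1075s, compared with 74.7% against 35.2% on colon_075s and 44.6% against 13.7% on colon_682s, with 35.5% against 10.8% on colon_073s, 28.7% against 9.68% on colon_439s and 29.4% of 17 cells against 13.9% on colon_516s. For *Dmp1* the difference was seen within colon_073s (65.1% against 0.645%), colon_075s (82.5% against 5.71%), colon_1075s (80.6% against 6.25%), colon_439s (52.5% against 2.22%), colon_513s (41.8% against 1.03%) and colon_682s (63% against 5.66%). The shares were 23.1% of 13 cells against 15% on colon_685s and 0 of 17 cells, which allows up to 17.6%, against 6.94% on colon_516s, and both had few cells that shared a row or column with such a well. Among the cells that shared a row or column with a well of 100 or more counts, 90% held no more than 0.853% of that well's *Dmp1* count, 0.787% of its *Lpar3* count and 0.990% of its *Ptprr* count. Low counts of these genes outside the apex are therefore printed here as counts in wells, with no reading as expression. Their cause was not tested.

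**Figure D4:**
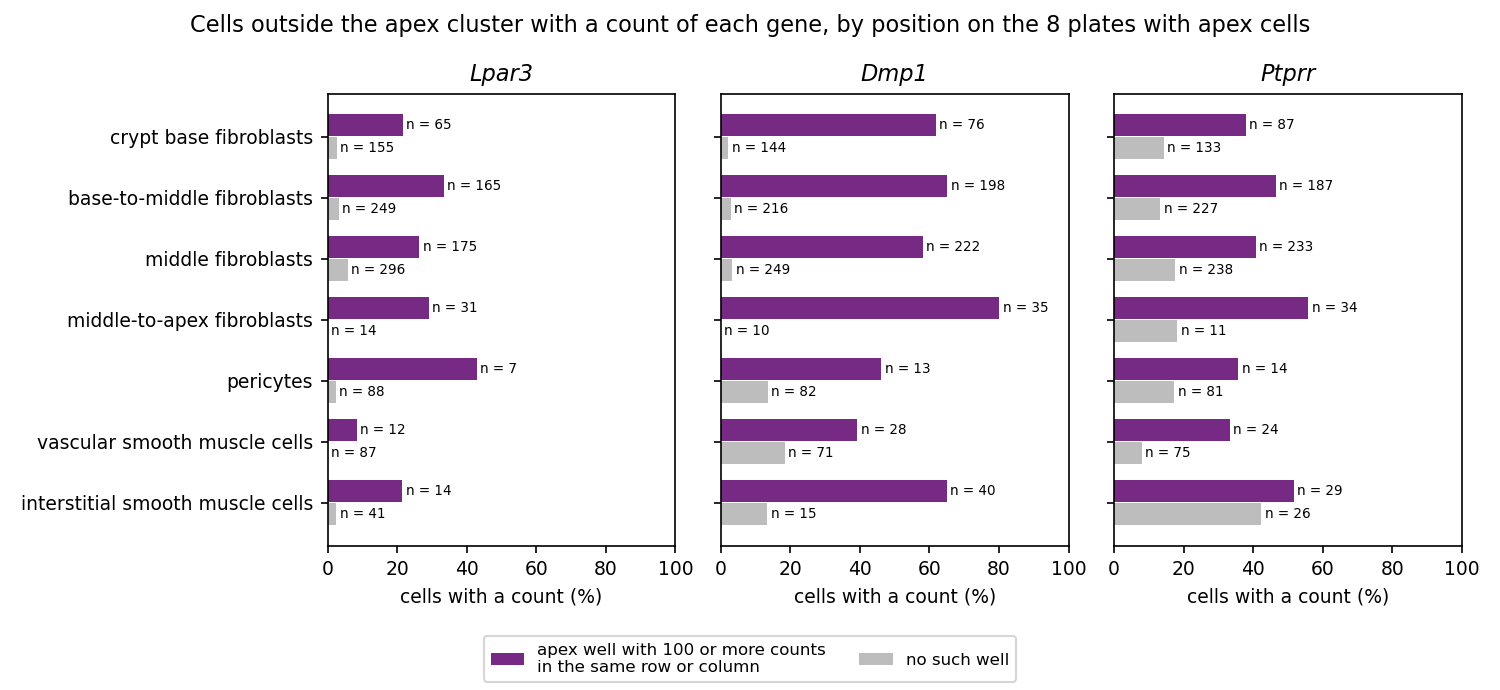
Share of cells with at least 1 count of each gene (horizontal axis, percent) in the 7 clusters outside the apex on the 8 plates with apex cells, split by whether an apex well with 100 or more counts of that gene lay in the same plate row or column; n is the number of cells. The purple bars exceed the grey ones in each cluster for all 3 genes, and the only grey bar above 20% is *Ptprr* in interstitial smooth muscle cells (42.3%), with *Dmp1* at 13.4% in pericytes and 18.3% in vascular smooth muscle cells.

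Wells with no count of the gene in any apex well of their row or column include by construction every cell on colon_686s, the plate without an apex cell. In such wells *Lpar3* was in 9 of 681 cells outside the apex (1.32%) with at most 2 counts, and in 0 of 97 crypt base fibroblasts, which allows a share of up to 3.09%. *Dmp1* was in such wells in 2.44% of base, 3.78% of base-to-middle and 3.48% of middle fibroblasts with at most 2 counts, and in none of 8 middle-to-apex fibroblasts (up to 37.5%). It was in 21.3% of pericytes and 25.7% of vascular smooth muscle cells in such wells, with up to 629 and 636 counts in a cell, but these shares rested in part on colon_686s and were 13.8% and 18.3% without it, a choice made after seeing the data. In interstitial smooth muscle cells *Dmp1* was in 2 of 13 such wells, with at most 4 counts. *Ptprr* was in 6 of 9 interstitial smooth muscle cells in such wells, with a mean of 78.5 per 500000, and in 5 of 8 with a mean of 64.8 without colon_686s. It also stayed in 11.2% of base, 18.1% of base-to-middle and 17.7% of middle fibroblasts, 1 of 6 middle-to-apex fibroblasts, 20.5% of pericytes and 11.2% of vascular smooth muscle cells in such wells (17.3% and 7.69% without colon_686s), with at most 37 counts in a cell and mean levels of 0.167 to 1.18. By this split *Dmp1* kept high counts in pericytes and vascular smooth muscle cells and *Ptprr* in interstitial smooth muscle cells away from apex wells, whereas *Lpar3* kept at most 2 counts in a cell. By the split at 100 counts *Lpar3* kept more, in a middle fibroblast on colon_075s with 65 counts (121.3 per 500000, against an apex median of 73.1), and the highest apex *Lpar3* count in its row or column was 91. That cell had *Tnc* at 1011 per 500000, 2 counts of *Il1rl1* and 52 of *Cd34*. The other cell with 10 or more *Lpar3* counts was a base-to-middle fibroblast on the same plate with 19 counts (14.8 per 500000), in the row or column of an apex well of 100 or more, and it held 23 counts of *Il1rl1* and 619 of *Cd34*.

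The mural cells with high *Dmp1* were few. Among the mural clusters 13 cells held 100 or more counts, 10 vascular smooth muscle cells (129.2 to 602.7 per 500000) and 3 pericytes (173.4 to 541.2). They came from colon_686s (8 cells), colon_685s (3) and colon_682s (2), and none shared a row or column with an apex well that held a *Dmp1* count. The plate colon_686s had no apex cell at all. All 13 had 0 counts of *Lpar3*, 10 had 0 of *Il1rl1* and none had more than 1. All 13 held counts of the mural genes *Rgs5* and *Notch3*, though not always many. A vascular smooth muscle cell on colon_682s had 3 of *Rgs5* and a pericyte on colon_686s had 2 of *Notch3*. The apex marker *Tnc* was present in part of them: all 3 pericytes had 50 or more *Tnc* counts (158.3 to 563.9 per 500000), as had 23.9% of all pericytes, and 3 of the 10 vascular smooth muscle cells had (highest 203.5), as had 16.3% of all such cells. Apex cells were at 258.5 to 4554 for *Tnc*, and the part of apex RNA in these cells was not tested. By plate, *Dmp1* in vascular smooth muscle cells averaged 40.4 on colon_686s (42 cells), 34.2 on colon_685s (32), 18.9 on colon_682s (18), 10.7 on colon_516s (30) and 2.00 on colon_513s (11), and without colon_686s the mean over lines was 17.1. Most of these cells held little or none, since the upper quartile over vascular smooth muscle cells was 0.779 per 500000.

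*Ptprr* in interstitial smooth muscle cells was uneven in the same way. It was found in 27 of 56 cells (48.2%, 34.7 to 62), in 12 with 10 or more counts and in 4 with 100 or more. These 4 cells, at 188.2 to 468.98 per 500000, came from colon_682s (2 cells), colon_513s and colon_686s, and all 4 had 0 counts of *Il1rl1* and of *Lpar3*. For *Tnc*, 2 of the 4 had 50 or more counts, as had 26.8% of all interstitial smooth muscle cells, and the 4 ranged from 0.549 to 353.5 per 500000. The cell on colon_513s and 1 of those on colon_682s shared a row or column with an apex well that held *Ptprr*, and the other 2 did not. The interstitial cluster carried *Hhip*, its hedgehog-binding marker, at 1339 per 500000 in the Acta2GFP line and in 100% of cells, where apex cells had 3.40 ± 2.84. Among the fibroblasts outside the apex, 2 middle fibroblasts on colon_075s were at 134.6 and 382.3 for *Ptprr*, and both shared a row or column with an apex well of 100 or more counts.

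The sums of apex cells per line (n = 3) were compared with those of the other fibroblasts (clusters 1, 5, 6 and 7, n = 4) in edgeR. The clusters were drawn from the same counts, so this contrast is a description and no test of the 3 genes. All 3 were called at an adjusted p under 0.05, where the background was 1073 of 15964 genes (6.72%), 504 higher in the apex (3.16%) and 569 lower (3.56%). Of the 100 genes enriched in the apex (0.626%; log2 fold change of at least 2 and 100 or more counts in at least 30% of apex cells), *Lpar3* had the largest log2 fold change (8.78, SE 0.91), the WNT effector *Lef1* the second (8.40, SE 0.56), *Dmp1* the third (8.16, SE 0.82) and *Ptprr* the fourth (7.90, SE 0.63). The neuregulin gene *Nrg1* (7.24), *Col6a4* (6.86), *Cd38* (6.83), *Lama5* (6.69), the complement receptor *C5ar1* (6.23) and *Tbx3* (6.15) completed the first 10. *Lpar3* stood near the lower limit of the 30% criterion, with 100 or more counts in 30.5% of apex cells. These ranks hold only among the 100 enriched genes. *Il1rl1* was called in the same contrast with a log2 fold change of 8.55 (SE 0.67), above *Lef1*, *Dmp1* and *Ptprr*, but was not among the enriched genes.

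Of the other LPA receptors only *Lpar1* was abundant. It was at 282.1 ± 28.6 counts per 500000 in the apex and 310.9 ± 64.8 in the middle, and per kilobase of exon its apex level (65.8 ± 6.68) was close to that of *Lpar3* (54.4 ± 15.9). *Lpar6* was at 2.81 per kilobase, *Lpar4* at 0.234, *Lpar2* at 0.0111 and *Lpar5* was not found in apex cells (0 cells, which allows up to 2.29%). Among the 22 other genes of the lysophosphatidic acid list, 19 could be tested, 3 were called higher and 3 lower in the apex, where 3.16% and 3.56% of all genes were, with a median log2 fold change of -0.11 against 0.0015 over all genes. Those lower were *Pla1a*, a phospholipase that yields lysophospholipids (-5.99), and *Plpp1* and *Plpp3*, phosphatases that degrade LPA (-1.31 and -1.22). Those higher were *Gnai1*, a Gi subunit (1.38), *Ptgs2*, the prostaglandin synthase (5.14), and *Bmp2* (4.67), both also among the apex markers above. Autotaxin (*Enpp2*) was at 7.95 ± 7.28 in the apex and 100 ± 29.7 at the crypt base and was not called (log2 fold change -2.98, SE 1.07, adjusted p = 0.144 in edgeR).

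The other SIBLING genes were low where *Dmp1* was high. In the apex, *Spp1* (osteopontin) was at 1.98 ± 1.67 per kilobase of exon, *Dspp* at 0.0227, and *Ibsp* and *Mepe* were found in none of the apex cells (up to 2.29%), against 176.7 ± 18 for *Dmp1*, although all 5 genes lie beside each other on chromosome 5 (*Dspp* 22486 bases before *Dmp1*, *Ibsp* 85069 after it). Of the 18 other genes of the mineralisation list 10 could be tested. *Cd44*, an osteopontin and hyaluronan receptor (2.94), *Runx2*, the osteoblast regulator (2.70), and the neighbour *Sparcl1* (1.22) were higher in the apex and *Fam20c*, the kinase that phosphorylates SIBLING proteins, was lower (-5.12), with a median of 0.99 over the 10 against 0.0015 over all genes. Of all genes tested 3.16% were higher and 3.56% lower. *Sparcl1* was high in every cluster, 1410 ± 137.6 in the apex and 2914 ± 658 in vascular smooth muscle cells. *Phex*, *Sp7*, *Bglap*, *Sost* and *Fgf23* were too low to test.

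The related phosphatases *Ptpn5* and *Ptpn7*, which also carry a kinase interaction motif, were at 0.00632 and 0.00842 per kilobase in the apex against 37 for *Ptprr*. Of the 26 other genes of the MAP kinase list 23 could be tested, 4 were called higher and 0 lower, against 3.16% and 3.56% of all genes, with a median of 0.19 against 0.0015. The 4 were the feedback inhibitors *Spry1* (2.14) and *Spry4* (2.37), the phosphatase *Dusp10* (1.93) and the early response gene *Egr1* (1.43).

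Of the nearest genes, *Lgr5* and *Tspan8*, both beside *Ptprr*, were above 10 counts per 500000 in the apex and highest there, and no other was. *Ptprb*, which starts 591 bases after the end of *Ptprr* on the same strand, was at 2.05 ± 1.95 in the apex and highest in pericytes (3.14 ± 1.94). *4933416C03Rik*, inside *Ptprr* on the other strand, was at 3.13 ± 2.46 in the apex and at 0.161 or less elsewhere, and as no source used here says that reads were counted by strand, its counts cannot be told apart from those of *Ptprr*. *Mcoln2*, 25450 bases before *Lpar3*, was at 1.04 ± 1.79. *Tspan8*, a tetraspanin gene that ends 168320 bases before *Ptprr*, was at 46.6 ± 43.1 in the apex, 17.4 in interstitial smooth muscle cells and 15.6 ± 8.12 in middle fibroblasts. *Lgr5*, the receptor for R-spondins known as a marker of epithelial stem cells, 430433 bases before *Ptprr*, was at 287.8 ± 58.9 in the apex and 5.33 in interstitial smooth muscle cells, and in 57.3% of apex cells.

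Which genes followed each of the 3 most closely depended on the measure. Over 21 groups (a cluster in a line with at least 10 cells) and 10346 genes, the 5 highest Pearson correlations of log2(level + 1) with *Ptprr* were those of *Cntnap4* (0.97), *Nrg1* (0.96), *Lgr5* (0.95), *Nxf7* (0.93) and *Rarres1* (0.93). In these 5 genes the highest level outside the apex was in interstitial smooth muscle cells, between 5.33 (*Lgr5*) and 46.2 (*Rarres1*). With a pseudocount of 10 or Spearman's correlation *Lgr5* was not among the 5 closest to *Ptprr* but among the 5 closest to *Lpar3* (0.996 and 0.92). With the pseudocount of 1 the closest to *Lpar3* were *Trpa1* (0.997), a cation channel, the transporter *Slco4a1* (0.99), *Cd300e* (0.99), *Tmem108* (0.99) and the collagenase *Mmp13* (0.99), none of which exceeded 2.31 outside the apex. The closest to *Dmp1* were *Edar* (0.93), the ectodysplasin receptor, *Insc* (0.93), *Gatm* (0.91), *Slco4a1* (0.91) and *Mmp13* (0.90). *Insc*, a regulator of spindle orientation, reached 21.6 in vascular smooth muscle cells of PdgfrbGFP mice and *Gatm* 3.39 in those of Acta2GFP mice. *Lpar3* and *Dmp1* correlated at 0.89, *Lpar3* and *Ptprr* at 0.91, and *Dmp1* and *Ptprr* at 0.81. The groups share lines and plates, and 3 of the 21 are apex groups, so these correlations largely restate the difference between the apex and the rest by which the 3 genes were chosen.

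Among apex cells the likeness was weak. Over the apex cells thinned to 50000 counts and 1750 genes found in at least 50% of them, the highest Spearman's rho with *Dmp1* were those of *Gm26578* (0.49), *Il1rl1* (0.44), *Nrg1* (0.44), *Acsl4* (0.41) and *Fgf7* (0.40), a growth factor for epithelium. *Gm26578* and *Nrg1* kept a rho of 0.28 to 0.58 on each of colon_439s, colon_1075s and colon_513s, while *Il1rl1* ranged from 0.13 to 0.60. The highest with *Lpar3* were *Tppp3* (0.38), *Eva1a* (0.31), *Oaf* (0.31), *Otulinl* (0.30) and *Abcc4* (0.28), and with *Ptprr* the receptor tyrosine kinase *Axl* (0.34), *Fgf7* (0.30), *Dmp1* (0.29), *Txnip* (0.28) and *AA474408* (0.28). Only *Fgf7* was among the 5 of more than 1 of the 3 genes. On colon_439s, colon_1075s and colon_513s its rho was 0.048, 0.56 and 0.44 with *Dmp1* and 0.17, 0.24 and 0.29 with *Ptprr*. On colon_439s rho was also low for *Oaf* with *Lpar3* (0.018) and for *Txnip* (0.051) and *AA474408* (-0.045) with *Ptprr*.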

How the data were processed

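The authors trimmed adapters, aligned the reads of each SmartSeq2 library to GRCm38 (mm10) with TopHat2 and assigned them to genes with featureCounts. They deposited raw counts for 46609 rows and 1646 cells, all of which were used, and had left out cells with very many genes as potential doublets, so no doublet caller was run. The methods also remove what they call doublets with samtools. In the table, no gene with at least 1000 counts in a cell exceeded 2 counts per exon base (highest 1.96 over 1594 genes), so high counts may be compressed. *Dmp1* reached 1.13, *Ptprr* 0.183 and *Lpar3* 0.163. The 92 ERCC rows (1.36% of counts) were left out.

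Genes were matched to GENCODE vM21, and cells were grouped by the line, plate, well and cluster in the labels. The 3 genes, the gene lists and the tests were chosen with earlier results of these data known. A level is the mean over cells of counts per 500000 counts on genes, and the error is the SD over lines with at least 10 cells of the cluster. Shares have 95% Clopper-Pearson intervals, which like the limits for a count of 0 (3 counts) cover counting error only, as reads without molecular identifiers are not independent molecules. Raw counts were summed per line (apex against other fibroblasts) or plate (apex cells between lines, sums of 4504842 to 17106349 counts). Genes that passed filterByExpr were tested with the quasi-likelihood test of edgeR on TMM-scaled sums, adjusted by Benjamini-Hochberg. The standard error is the log2 fold change over the square root of F.

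Named genes are the 3 genes, the lists, the adjacent genes, the 10 largest log2 fold changes among enriched genes, and for each of the 3 the 5 genes most alike over groups (level of at least 20 in a group) and over apex cells. Alternatives were DESeq2, no filter, line as a block, plates, 3 cells per sum, clusters 1, 5 and 7, each line or plate left out, other scalings and thresholds, thinning to 50000 counts (11 cells were below it), cells outside clusters 2 and 6, and other likeness measures. Protein sequences were not used here. R 4.3.3, edgeR 4.0.16, DESeq2 1.42.0, Python and scipy were used.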

Additional observations from a re-analysis of the deposited data

Results flagged for a closer look

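Of 9 groups of 4 to 10 plates or lines examined for a sample far from the others, 2 held one, both in vascular smooth muscle cells. How many groups chance alone would mark is not known for such low means, some of which rest on single counts. Mean *Ptprr* was 6.79 counts per 500000 on colon_513s (11 cells, highest cell 17 counts) against a median of 0.306 on the 4 other plates. Mean *Lpar3* was 0.177 on colon_682s, which rests on 1 count in 1 cell, and the median of the other plates was 0.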

How the results depend on the processing

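The apex contrast called 6.72% of genes tested, 14.8% with DESeq2, 12.1% with plates as replicates and 0.886% (without Acta2GFP) to 7.37% (without Cspg4dsRED) with a line left out (3.61% without PdgfraGFP and 3.90% without PdgfrbGFP), and all 3 genes were called in each. With the line as a replicate block it called 4.49%, and sums of a line were hardly paired (r of 0.0941 to 0.124 over genes). Apex cells between lines gave 0 calls. For PdgfraGFP against PdgfrbGFP DESeq2 called 2.30%, no filter 0.0534% and single plates left out 0 to 0.334% (0.334% without colon_439s, 0.121% without colon_1075s). For Acta2GFP against PdgfrbGFP they called 0.103%, 0.0356% and 0 to 0.0571% (0.0571% without colon_1075s, 0.0568% without colon_439s), and for Acta2GFP against PdgfraGFP 0.261%, 0.0356% and 0 to 0.242% (0.242% without colon_439s, 0.0499% without colon_1075s). None of the 3 genes was called. The uncalled differences between PdgfraGFP and PdgfrbGFP changed sign with plates left out, from -1.64 (without colon_439s) to 0.49 (without colon_1075s) and 0.59 (without colon_075s) for *Lpar3* and from -0.0020 (without colon_073s) to 0.91 for *Dmp1*. The causes were not tested.

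The level of *Dmp1* moved by more than its SD over lines in 1 cluster. In apex fibroblasts it was 281.8 in wells with no *Dmp1* count in another apex well of the row or column. *Ptprr* in interstitial smooth muscle cells had 1 line of at least 10 cells and so no SD over lines. With plates left out it ranged from 39.3 to 82.5 (82.5 without colon_513s), which are the means of colon_513s and colon_682s alone. Both alternatives were chosen after seeing the data. Shares of apex cells with *Lpar3*, *Dmp1* and *Ptprr* were 59.5%, 48.1% and 80.9% at 10 counts and 30.5%, 38.9% and 42.7% at 100 counts, and thinning gave 58.8% for *Dmp1* and 83.2% for *Ptprr*. All 3 together were in 33.6% after thinning, 25.95% at 10 and 12.2% at 100 counts. Outside the apex the shares were 3.66%, 15.1% and 9.18% after thinning, 0.132%, 6.20% and 1.45% at 10 counts and 0%, 0.858% and 0.396% at 100 counts. Leaving out each plate in turn, also chosen after seeing the data, gave 4.40% (without colon_075s) to 12.3% for *Lpar3*, 24.4% to 31.9% for *Dmp1* and 21.1% to 29.6% for *Ptprr*. With an apex well of 100 or more counts in the row or column it gave 13.9% (without colon_075s) to 31.9%, 53.3% to 66.3% and 32.8% to 49.5%, and without such a well 1.31% (without colon_075s) to 4.18%, 3.75% to 6.65% and 13.1% to 16.8%. Leaving out cluster 6 moved no share by plate position beyond its interval. Of the 5 genes most like each of the 3, pseudocount 10 kept 4, 3 and 2 and Spearman's correlation 0, 1 and 1 for *Lpar3*, *Dmp1* and *Ptprr*. Depth limits the shares, since the shallowest cell had 47598 counts on genes.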
